A study of Mus musculus with 3 samples.

Results

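The cells described here are the regulatory T cells (Tregs) of mouse epidermis with the highest share of transcripts from Ccr3, Serpinb1a, Lgals3, Ltb4r1 and Nkg7. In each epidermal cell the UMIs (unique molecular identifiers, each standing for 1 captured transcript) of these 5 genes were summed and divided by the cell's total. Cells above 0 and at or above the 77th percentile of this score were taken, which gave 63 of 271 kept epidermal cells, or 23.2%. The other 208 kept epidermal cells are the comparison, and they are called the other cells throughout. The score was made from the same counts that are compared, so the levels of the 5 genes are a description of the choice and carry no test.

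The series holds 1 single-cell RNA library each of Tregs from epidermis, dermis and lymph node, with 10414 kept cells in all. The mice were adults of the reporter strain C.Cg-Foxp3tm2Tch/J (FOXP3-EGFP), in which cells that express Foxp3 carry green fluorescent protein, and back skin is named for the epidermal sample. All 3 libraries carry this reporter allele, were sorted as GFP+, CD4+, CD3+ and CD45+ cells, and received no treatment that the labels name. The skin layers were parted with thermolysin, only dermis was also digested with collagenase, and lymph node was mashed. The 10x 3' kit was version v3 for skin and v2 for lymph node, so tissue, digestion and kit cannot be told apart between libraries. How many mice were pooled, and of which sex, the sources used here do not give.

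Tregs are CD4 T cells that hold immune responses in check and depend on the transcription factor Foxp3. In skin many of them lie near hair follicles, and they are known for restraining inflammation and for supporting repair. The 5 score genes have separate known roles. Ccr3 is a receptor for eotaxin chemokines and is best known from eosinophils, and Ltb4r1 is a receptor for the lipid chemoattractant leukotriene B4. Serpinb1a inhibits serine proteases of neutrophil granules, Lgals3 encodes the sugar-binding protein galectin-3, and Nkg7 encodes a membrane protein of cytotoxic granules in natural killer and CD8 T cells.

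The promoter windows of the score genes are shown because they put side by side the start sites of genes that the score treats as a set. RefSeq windows (GRCm38.p6, 250 bases before to 50 after the start) were found for 4 of the 5 score genes, Serpinb1a being the exception. A set of 5 short motifs was searched on both strands. The core bound by RUNX factors was written TGTGGT in the search. For T-box factors, to which Tbx21 belongs, the letters GGTGTGA were used. The GATA factor motif was taken as AGATAA on either strand. AP-1, the Fos and Jun dimer, was searched for as TGANTCA with any base in the middle. Sites of KLF factors were represented by CCACCC alone. Neighbouring copies can overlap, as at the first KLF matches of Nkg7. Capitals mark the matches, and each sequence reads 5′ to 3′ on the plus strand, which is the strand of all 3 genes.
Nkg7, chr7:43436888-43437187: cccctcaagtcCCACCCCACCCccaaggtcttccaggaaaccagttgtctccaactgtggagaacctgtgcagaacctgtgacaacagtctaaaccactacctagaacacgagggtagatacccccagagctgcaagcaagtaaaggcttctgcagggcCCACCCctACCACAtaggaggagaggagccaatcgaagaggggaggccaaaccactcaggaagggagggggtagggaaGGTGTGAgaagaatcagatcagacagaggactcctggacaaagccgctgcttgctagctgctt
Ltb4r1, chr14:55765712-55766011: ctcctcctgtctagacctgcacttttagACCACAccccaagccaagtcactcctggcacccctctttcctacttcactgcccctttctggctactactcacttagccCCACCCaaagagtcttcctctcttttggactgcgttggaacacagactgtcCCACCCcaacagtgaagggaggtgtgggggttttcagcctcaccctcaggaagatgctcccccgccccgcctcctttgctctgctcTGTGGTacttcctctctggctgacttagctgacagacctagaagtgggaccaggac
Ccr3, chr9:124021721-124022020: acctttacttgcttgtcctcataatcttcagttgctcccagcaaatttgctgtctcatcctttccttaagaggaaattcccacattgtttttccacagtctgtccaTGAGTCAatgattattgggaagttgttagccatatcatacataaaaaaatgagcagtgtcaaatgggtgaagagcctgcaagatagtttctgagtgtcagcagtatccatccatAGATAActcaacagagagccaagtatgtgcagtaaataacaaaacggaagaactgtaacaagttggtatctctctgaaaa

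The Nkg7 window held 1 RUNX, 1 T-box and 3 KLF matches, the Ltb4r1 window 2 RUNX and 2 KLF matches, and the Ccr3 window 1 GATA and 1 AP-1 match. The Lgals3 window held none of these letters. Nkg7 and Ltb4r1 thus shared RUNX and KLF letters, and Ccr3 shared none with either. Among 32851 RefSeq windows of this length, RUNX letters were in 16.8%, T-box letters in 3.98%, GATA letters in 11.2%, AP-1 letters in 7.81% and KLF letters in 31.5%.

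Before the results, 1 property of the libraries has to be given. Of the kept epidermal barcodes, 35 (12.9%), 8 of them score-high, also occurred in the dermal matrix, and 0 were among those kept in lymph node. The kit version differed for lymph node, so that 0 is no comparison for the 35. The 35 shared barcodes had a median depth of 14097 UMIs in epidermis and 1379 in dermis. The median correlation of an epidermal profile with the dermal profile of the same barcode was 0.632, against 0.471 with the other shared dermal barcodes. For 7 of the 35, the same barcode was the best match among the shared ones. Counts and genes below are therefore also given without these barcodes where that matters. A total of 360 epidermal barcodes were deposited, of which 63 exceeded 10% mitochondrial UMIs and 24 further ones lay outside the T cell gate. Score-high cells had a median of 7685 UMIs (1455 to 18543) and the other cells 6990.5 (742 to 54520), and mitochondrial shares were 3.80% and 3.97%.

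Within the score-high cells the 5 genes contributed unequally. Nkg7 gave 49.4% of the score UMIs and Lgals3 29.4%, while Ccr3 gave 9.43%, Ltb4r1 7.80% and Serpinb1a 3.90%. By cells the order differed, with Lgals3 UMIs in 41 of 63 cells, Nkg7 in 34, Ltb4r1 in 26, Ccr3 in 17 and Serpinb1a in 8. Only 3 score-high cells held UMIs of both Ccr3 and Serpinb1a, and 41 held neither. The name that pairs Ccr3 and Serpinb1a with Lgals3 therefore does not describe most of these cells, whose leading score genes were Nkg7 and Lgals3, and they are called score-high cells here.

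**Figure D1:**
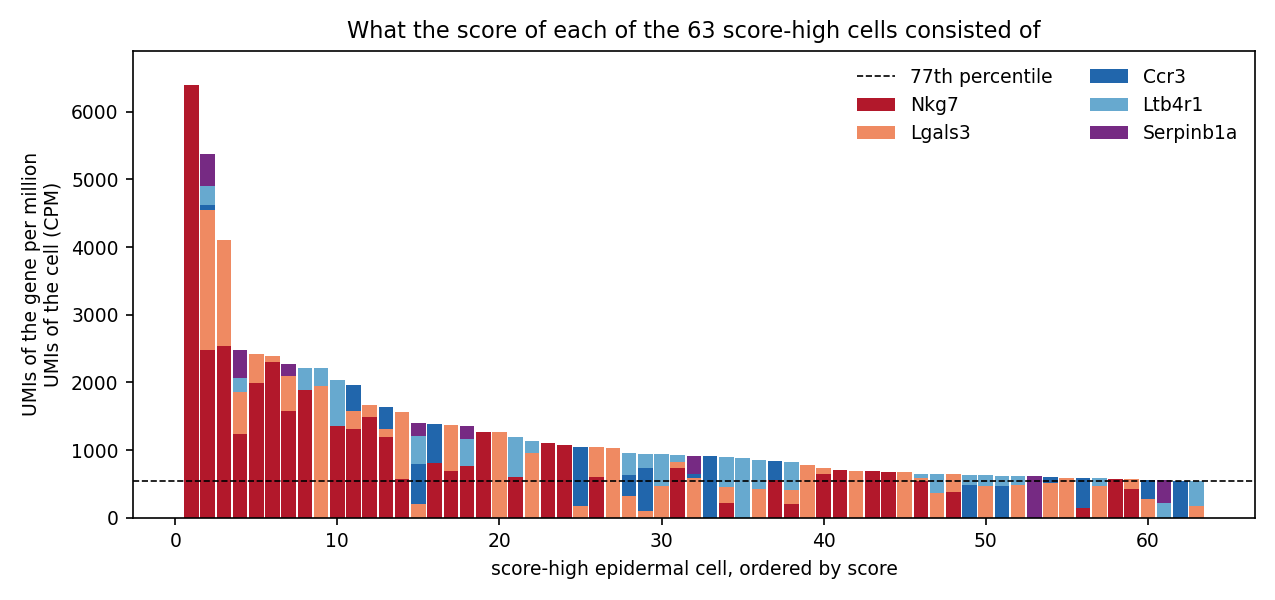
Each bar is 1 of the 63 score-high epidermal cells, ordered by score; its coloured segments give the UMIs of each score gene relative to the cell's total (counts per 1000000, CPM), and the dashed line is the 77th percentile at 537 CPM. The highest bar, at 6392 CPM, is Nkg7 alone, and the bars near the line are mostly made of few UMIs of 1 or 2 genes.

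The score itself ran from 538 to 6392 UMIs per 1000000 UMIs of the cell (CPM), with a median of 917. The highest cell reached its value with 18 UMIs of Nkg7 alone, out of 2816. The second had 36 Nkg7, 30 Lgals3, 7 Serpinb1a, 4 Ltb4r1 and 1 Ccr3 UMIs out of 14496, and was the 1 cell with all 5 genes. Of the others, 18 held 1 score gene, 31 held 2, 11 held 3 and 2 held 4. The summed score UMIs ran from 1 to 78 with a median of 7, so many cells were chosen on few transcripts. Just inside the threshold of 537 CPM stood cells at 538, 544 and 557 CPM, and just outside it cells at 526, 521 and 494 CPM. Within 10% of the threshold lay 7 score-high and 4 other cells. Among the other cells, 79 had a score UMI and 129 had none.

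Nkg7 lies on chromosome 7 (43437073 to 43438249, mm10, plus strand, protein coding). Its UMIs per cell ran from 0 to 36 with a median of 1 in score-high cells and from 0 to 11 with a median of 0 in the other cells, 15 of which held any. Summed over cells it stood at 619 CPM against 17.7. Lgals3 (chromosome 14, 47367751 to 47386160, plus strand) ran from 0 to 30 UMIs with a median of 1, against 0 to 4 with a median of 0, and summed to 369 CPM against 31.8. For both genes the groups overlapped, since 29 score-high cells had no Nkg7 UMI and 22 had no Lgals3 UMI.

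Ccr3 (chromosome 9, 124021972 to 124031689, plus strand) gave 58 UMIs in 17 score-high cells and 36 UMIs in 18 other cells, or 118 against 21.2 CPM. The lipid receptor Ltb4r1 (chromosome 14, 55765962 to 55768494, plus strand) gave 48 UMIs in 26 cells and 31 UMIs in 25, or 97.8 against 18.3 CPM. Serpinb1a (chromosome 13, 32842092 to 32851185, minus strand) was the rarest, with 24 UMIs in 8 score-high cells and 10 UMIs in 7 other cells. The 5 cells with most Serpinb1a held 83.3% of its score-high UMIs. Its near copies Serpinb1b and Serpinb1c had no UMI in any kept epidermal cell.

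Because the score fixes these differences, each gene was also set against a score made from the other 4. Cells chosen that way had 2.85-fold more Nkg7 than the rest (95% interval 2.27 to 3.55) and 2.78-fold more Lgals3 (2.12 to 3.62). Ltb4r1 was 2.73-fold higher (1.70 to 4.35) and Serpinb1a 4.30-fold higher (2.07 to 9.10, on 34 UMIs in all). The ratio of Ccr3 was 1.47 (0.912 to 2.33), an interval that includes 1. The cell with UMIs of every score gene was chosen each time. It held 36 of the 143 Nkg7 UMIs of the chosen cells, 30 of 101 for Lgals3 and 7 of 19 for Serpinb1a. For Ltb4r1 it held 4 of 35 and for Ccr3 1 of 28. The ratios of Nkg7, Lgals3 and Serpinb1a thus rest in part on that cell, and ratios without it were not computed. The exact intervals here and below come from the split of 2 counts and cover counting error only, since cells of 1 library are not replicates. Every cell was also thinned to 1500 UMIs, which left out 9 shallower cells, but here the score-high cells were those of the full score. That score counts Nkg7 and Ccr3, so the shares that follow describe the choice of cells and carry no test. Nkg7 was seen in 45.9% of 61 score-high cells and 1.99% of 201 others, and Ccr3 in 13.1% and 2.99%.

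The score-high cells carried the defining Treg genes, most of them near the level of the other cells. A Foxp3 UMI was found in 29 of 63 score-high cells (46.0%) and in 42.3% of the others, and Foxp3 summed to 104 against 88.3 CPM, a ratio of 1.18 (0.839 to 1.63). Il2ra, the high-affinity chain of the interleukin-2 receptor, was seen in 69.8% and 69.7% of cells, and the inhibitory receptor Ctla4 in 92.1% and 92.3%. Ikzf2 was in 88.9% and 91.3%, and 98.4% of score-high cells held at least 1 of the 5 Treg markers checked. Over 18 genes of a Treg core list the median log2 ratio was -0.03, beside 0.02 over all 8096 genes at 10 CPM or more. Of the 16 list genes at 50 CPM or more, 0 were at least 2-fold higher and 1 was lower: Izumo1r, a surface marker of Tregs from the folate receptor family, at 116 against 249 CPM, a ratio of 0.466 (0.347 to 0.616). Ikzf4, a transcription factor of the Ikaros family, was at 65.2 against 123 CPM, a ratio of 0.530 (0.353 to 0.771) that missed the 2-fold limit.

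The 7 genes known from skin Tregs that follow all stayed under 2-fold, with Areg the farthest from equal. Itgae, the integrin that binds epithelial E-cadherin, was at 556 against 446 CPM (ratio 1.25), Gata3 at 220 against 186 (1.19), and Icos at 900 against 781 (1.15). The chemokine receptor Ccr8 stood at 36.7 against 39.5 CPM, Il1rl1, the receptor for interleukin-33, at 65.2 against 78.9, and Il10 at 73.3 against 60.7. The growth factor Areg was at 367 against 575 CPM, a ratio of 0.637 (0.541 to 0.748), with 0 to 52 UMIs per cell in score-high and 0 to 138 in other cells. It was seen in 23 of 63 and 74 of 208 cells, so the lower sum went with smaller maxima and not with fewer positive cells.

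Markers of other cell types were at or near 0 for some lists and plain in both groups for others. Ccr3 is an eosinophil gene, and the 7 other eosinophil markers, Siglecf and Epx among them, had no UMI in score-high cells. Mast cell, melanocyte and erythroid lists were also at 0 there. The gamma-delta T cell list was at 0 in both groups, but only 2 of its 8 genes were in the gene table. That 0 therefore cannot show whether such cells were absent. Nkg7 is an NK and CD8 T cell gene, and the 9 CD8 T and NK markers summed to 22.4 CPM in score-high cells and 54.8 in the others, with 7 of 9 at 0. Cd8b1 led this list at 20.4 against 34.2 CPM, and Cd8a had 1 UMI against 34. The list was found in 9 of 63 score-high cells. Per cell this list reached at most 336 CPM in score-high and 1112 in other cells.

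Macrophage markers, which bear on Lgals3, summed to 8.15 against 4.12 CPM with 9 of 11 at 0. Neutrophil markers reached 38.7 against 17.7 CPM, almost all of it Mmp9 (36.7 CPM), with 5 of 7 at 0. Keratinocyte markers stood at 73.3 against 75.4 CPM, and dendritic cell markers at 477 against 446, led by Cd74 at 365 against 368, with UMIs of the list in 44 of 63 score-high cells. The innate lymphoid list summed to 988 against 1195 CPM in 56 of 63, led by Areg, which Tregs express too. The part of these lists in the results below was not tested.

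Barcodes outside the T cell gate were looked at as a possible background of free RNA. There were 24, with a median of 575.5 UMIs against 7052 in kept cells. Nkg7 and Ccr3 were in 0 of them, which allows a share of up to 12.5% by 3 counts of the 24 and 14.2% by the exact 95% limit. Lgals3 was in 4.17% and Ltb4r1 in 8.33%. Serpinb1a was in 8 of the 24 (33.3%), a share above the 12.7% of score-high cells at far lower depth. Whether a Serpinb1a UMI in a score-high cell is that cell's own expression was not tested. Those barcodes also held myelin genes: Mal gave 64 and Mobp 45 of their UMIs, and 6 myelin genes (Mbp, Mobp, Mal, Mog, Mag and Cnp) made up 16168 CPM. In the score-high cells Mobp, Mog and Mag had no UMI and Mal had 1, while Mbp had 24 UMIs in 16 cells and Cnp 64 in 34. Mbp and Cnp were also in the other cells, at 46.5 and 112 CPM against 48.9 and 130 in score-high cells. Mobp, Mog, Mag and Mal had no UMI in the other cells. The barcodes outside the gate thus differed from kept cells in these genes. Whether they stand for the free RNA in kept cells was not tested. Serpinb1a had 24 UMIs in score-high cells, and the part of free RNA in them was not tested.

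Across all genes, 56 of 3140 genes at 50 CPM or more in either group were at least 2-fold higher in the score-high cells (1.78%), and 73 were at least 2-fold lower (2.32%). Of the higher genes, 4 were score genes, and Serpinb1a stayed below 50 CPM. These counts describe the sums of 1 library and the rule used the same cells, so nothing is tested by them. Where mitochondrial and ribosomal protein genes were left out of the totals, the share of higher among all called genes went from 43.4% to 24.9%. With edgeR's TMM scaling it was 37.4%.

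**Figure D2:**
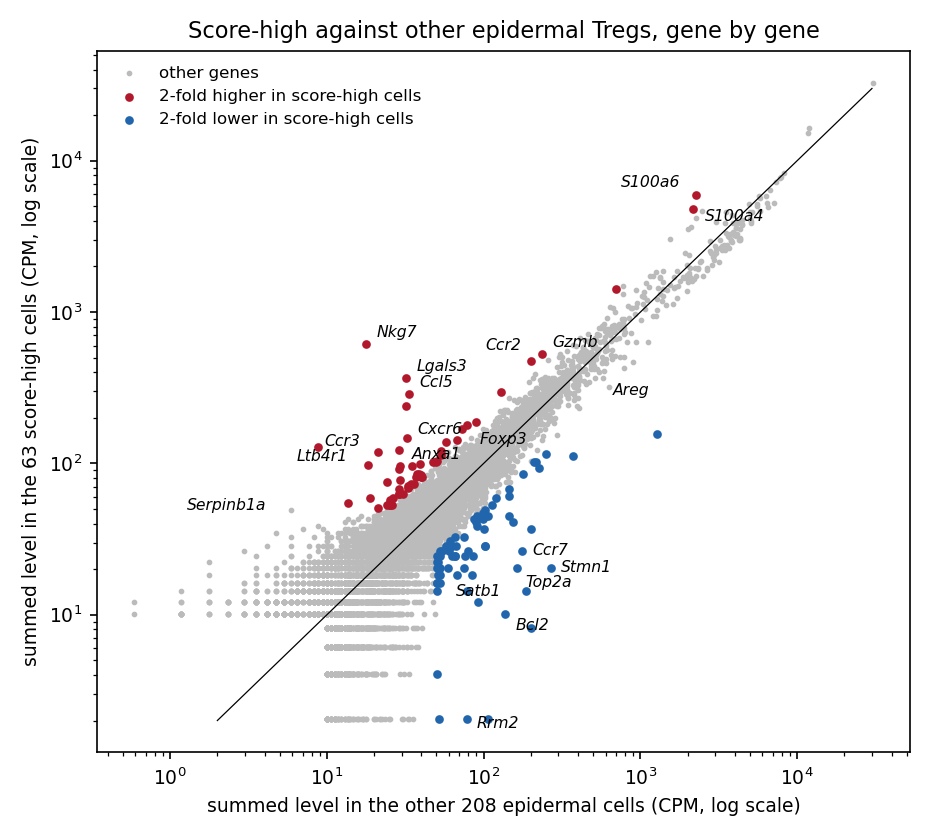
Each point is 1 gene with at least 10 CPM in either group and a UMI in both; the x axis is its summed level in the 208 other cells and the y axis that in the 63 score-high cells, both in CPM on log scales, with the line of equal levels. Red and blue mark genes at least 2-fold higher or lower at 50 CPM or more; Nkg7, at 619 against 17.7 CPM, lies farthest above the line among the labelled genes, and S100a6 and S100a4 are the most abundant of the higher genes.

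Outside the score, Ccl5 and Cxcr6 had the highest ratios among the genes that met the naming rule. Ccl5, a chemokine of memory and cytotoxic T cells, had 142 UMIs in 19 score-high cells and 57 UMIs in 24 others. Per cell it ran to 30 UMIs in score-high cells and to 6 in the others, with a median of 0 in both. Its sums of 289 against 33.6 CPM gave a ratio of 8.62 (6.30 to 11.9). This sum rested on few cells: single cells held 30, 24 and 22 of the 142 UMIs, and the top 5 held 71.8%. The chemokine receptor Cxcr6, a mark of resident T cells, was at 147 against 32.4 CPM (4.53-fold), in 16 cells of each group. Cxcr3, the receptor for interferon-induced chemokines, was at 179 against 77.7 CPM (2.31-fold), and Ccr2, a receptor for monocyte chemoattractants, at 477 against 201 CPM (2.37-fold). Ccr2 was seen in 46 of 63 and 93 of 208 cells.

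Of 9 chemokine receptor genes at 50 CPM or more, score genes aside, Cxcr3, Cxcr6 and Ccr2 were higher and Ccr7 and Ccr6 lower. Ccr7, which guides cells to lymph nodes, gave 13 UMIs in 5 score-high cells and 298 UMIs in 68 others, or 26.5 against 175 CPM. Ccr6, the receptor for Ccl20, stood at 44.8 against 106 CPM. The list median was 0.60 over 12 genes, but -0.20 where only Xist was seen, 0.21 where only Y-linked transcripts were, and -0.07 in dermis. S1pr4, a sphingosine phosphate receptor, was the only called gene of 9 in the list of lipid and other chemoattractant receptors, at 143 against 67.7 CPM.

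Galectin, annexin and S100 genes formed the list with most higher genes. Among 17 measured, 14 lay above 1 and the median log2 ratio was 0.78; at 50 CPM or more, 5 of 14 were at least 2-fold higher and none lower. The calcium-binding protein gene S100a6 had a median of 27 UMIs per score-high cell (0 to 254) and 7 per other cell (0 to 146). It summed to 5906 against 2272 CPM, 2.60-fold (2.48 to 2.73), and 62 of 63 score-high cells held it, against 161 of 208. S100a4 had medians of 34 and 11 UMIs and summed to 4816 against 2158 CPM, 2.23-fold. S100a11 was 2.03-fold higher, and the annexins Anxa1 and Anxa2 were at 122 against 28.9 and 295 against 130 CPM. Lgals1, a second galectin, was at 3025 against 1546 CPM, 1.96-fold.

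S100 genes and Lgals1 also came first when every gene was ranked by its correlation with the score over the 271 kept cells. Spearman's rho was 0.55 for S100a6 and S100a4, 0.50 for Lgals1, 0.46 for S100a10 and S100a11, 0.44 for Vim, 0.43 for Actg1 and Capg, and 0.38 for Ccr2 and Gzmb. The median absolute rho over the 5702 genes ranked was 0.058. These cells share 1 library, the score's rho with depth was 0.099, and the values are a description.

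Cytoskeleton genes lay above 1 by less. All 19 measured genes of that list, score genes having no part in it, lay above 1 with a median of 0.47, and 0 reached 2-fold. Vim, an intermediate filament gene, stood at 4645 against 2470 CPM, Actg1, a cytoplasmic actin, at 4189 against 2279, and the actin-capping gene Capg at 1306 against 771. Serpins and other protease inhibitors, Serpinb1a aside, lay above 1 in 7 of 7 measured genes (median 0.59), with 0 of 6 at 2-fold. Cst7, an inhibitor of cathepsins, was at 112 against 73.6 CPM and Serpinb6a at 67.2 against 44.8. In the lysosome list 13 of 16 measured genes were above 1 (median 0.29), with Ctsd at 226 against 137 and Ctsb at 200 against 121 CPM, both genes of lysosomal proteases.

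Of the cytotoxic granule genes other than Nkg7, 7 of 16 in the gene table reached 10 CPM, 6 of them above 1. Gzmb, which encodes granzyme B, was at 532 against 235 CPM, 2.26-fold, in 33 and 43 cells, and a single other cell held 128 of its 399 UMIs. It was the only 1 of 4 list genes at 50 CPM or more that was called, and the list median was 0.35 over 7 genes. Prf1, the perforin gene, gave 4 UMIs in score-high cells and 10 in the others. Gzma had none in either group, Eomes had 0 and 1, and Klrd1 had 1 and 0.

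Type 1 cytokine and chemokine transcripts rested on few cells. Ifng, which encodes interferon gamma, was at 128 against 8.83 CPM, but 1 cell held 39 of its 63 score-high UMIs (61.9%), and 14 score-high and 4 other cells had any. Ccl4 was at 238 against 31.8 CPM from 9 and 5 cells, and 1 cell held 47.9% of the score-high UMIs. In cells with a Y-linked and no Xist UMI the Ccl4 ratio was 0.0669, the opposite direction. Tbx21, the type 1 transcription factor, had 7 UMIs in 3 score-high cells and 6 UMIs in 3 others. Stat4, which relays interleukin-12 signals, was lower, at 22.4 against 50.1 CPM, and the interferon-induced chemokine Cxcl10 was at 20.4 against 74.8 CPM.

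The other leading genes under the naming rule belonged to no single list. Dkkl1 was 4.06-fold higher, the T cell surface gene Cd7 3.18-fold, the transcription factor gene Arnt2 3.13-fold, the mitochondrial carrier Slc25a24 3.12-fold and Acyp1 2.76-fold. Mxi1, a MYC antagonist, was at 2.63-fold, the glucose transporter Slc2a3 at 2.53-fold and the kinase gene Camk2g at 2.40-fold. All 8 had under 100 CPM in score-high cells, from 50.9 for Camk2g to 99.8 for Slc2a3. In the glycolysis and hypoxia list, 18 of 20 genes lay above 1 (median 0.40) and Slc2a3 was the only called gene.

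The resting and the proliferation lists held 14 of the 73 lower genes, 8 of them cell cycle genes. Of the resting and lymphoid homing list, 19 of 20 measured genes lay below 1 with a median of -0.91, and 6 of 17 were at least 2-fold lower, among them Bcl2, Igfbp4, Ccr7, Evl and Satb1. The survival gene Bcl2 gave 5 UMIs in 3 score-high cells and 233 UMIs in 62 others, or 10.2 against 137 CPM, 13.5-fold lower. Igfbp4 had no UMI in score-high cells and 91 in 17 others. Set against a floor of 3 counts over the group, it was at least 8.77-fold lower. Evl was at 14.3 against 77.7 CPM, and the chromatin organiser Satb1 at 18.3 against 84.8.

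Of the proliferation list, 20 of 21 genes lay below 1 with a median of -1.67, and 8 of 12 were at least 2-fold lower. Rrm2, a subunit of ribonucleotide reductase, gave 1 UMI in score-high cells and 132 in 16 others. Stmn1, a regulator of microtubules, gave 10 UMIs in 5 cells and 454 in 26, and the topoisomerase gene Top2a 10 in 5 and 277 in 31. Birc5 had 0 against 112 UMIs, 10.8-fold lower when set at the floor of 3 counts, and Mki67 was at 28.5 against 101 CPM. Mcm7 stood at 24.4 against 76.0 CPM, and the cell cycle gene Cks1b, outside the list, at 4.07 against 50.1.

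These cell cycle differences went with few deep cells. Cells with at least 3 UMIs of Mki67, Top2a, Birc5, Cdk1 and Ccna2 numbered 19, of which 2 were score-high, and had a median of 17742 UMIs against 6917 in the remaining cells. Of the 19, 14 carried barcodes that were also in the dermal matrix. Without the shared barcodes the median of the proliferation list was -0.26 and Mki67 was 2.40-fold higher in score-high cells, while Stmn1 stood at a ratio of 0.725 and Top2a at 0.670. Both directions of Mki67 are thus in these data, depending on those barcodes. The resting list was not affected in this way, with a median of -1.09 without them.

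Leaving out the shared barcodes moved the counts to 83 higher (2.69% of 3090) and 68 lower (2.20%). Of the 52 higher genes that are not score genes, 50 still had 50 CPM and all 50 lay above 1, with 41 at 2-fold or more. Ccl5 was then 7.44-fold higher, Cxcr6 5.28-fold, S100a6 2.89-fold and Lgals3 13.3-fold. Of the 73 lower genes, 42 could be compared, and 41 of them lay below 1.

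Other epidermal cells include a resting set, so the score-high cells were also compared with the 132 other cells outside it that were not cycling. The resting set was the same share of cells by a score of 7 genes, among them Ccr7, S1pr1, Tcf7, Lef1, Bcl2 and Satb1, so those genes are fixed by this choice. In that comparison, 51 of 3237 genes were higher (1.58%) and 77 lower (2.38%), and all 52 genes named above as higher stayed above 1, with 25 at 2-fold. S100a6 went from 2.60-fold to 1.88-fold, S100a4 from 2.23 to 1.55, Ccr2 from 2.37 to 1.62 and Gzmb from 2.26 to 1.57. Ccl5 stood at 6.03-fold, Cxcr6 at 3.55-fold, Cd7 at 3.42-fold and Anxa1 at 2.88-fold. Areg stood at a ratio of 0.343 and Il2ra at 0.654. Il1rl1 was at 0.503 (0.329 to 0.750), Ccr8 at 0.539 (0.300 to 0.923) and Ikzf4 at 0.400 (0.264 to 0.590), while Izumo1r was at 0.765 (0.551 to 1.05). The median of the galectin, annexin and S100 list was 0.51, that of chemokine receptors 0.02, and that of the effector list -0.27.

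**Figure D3:**
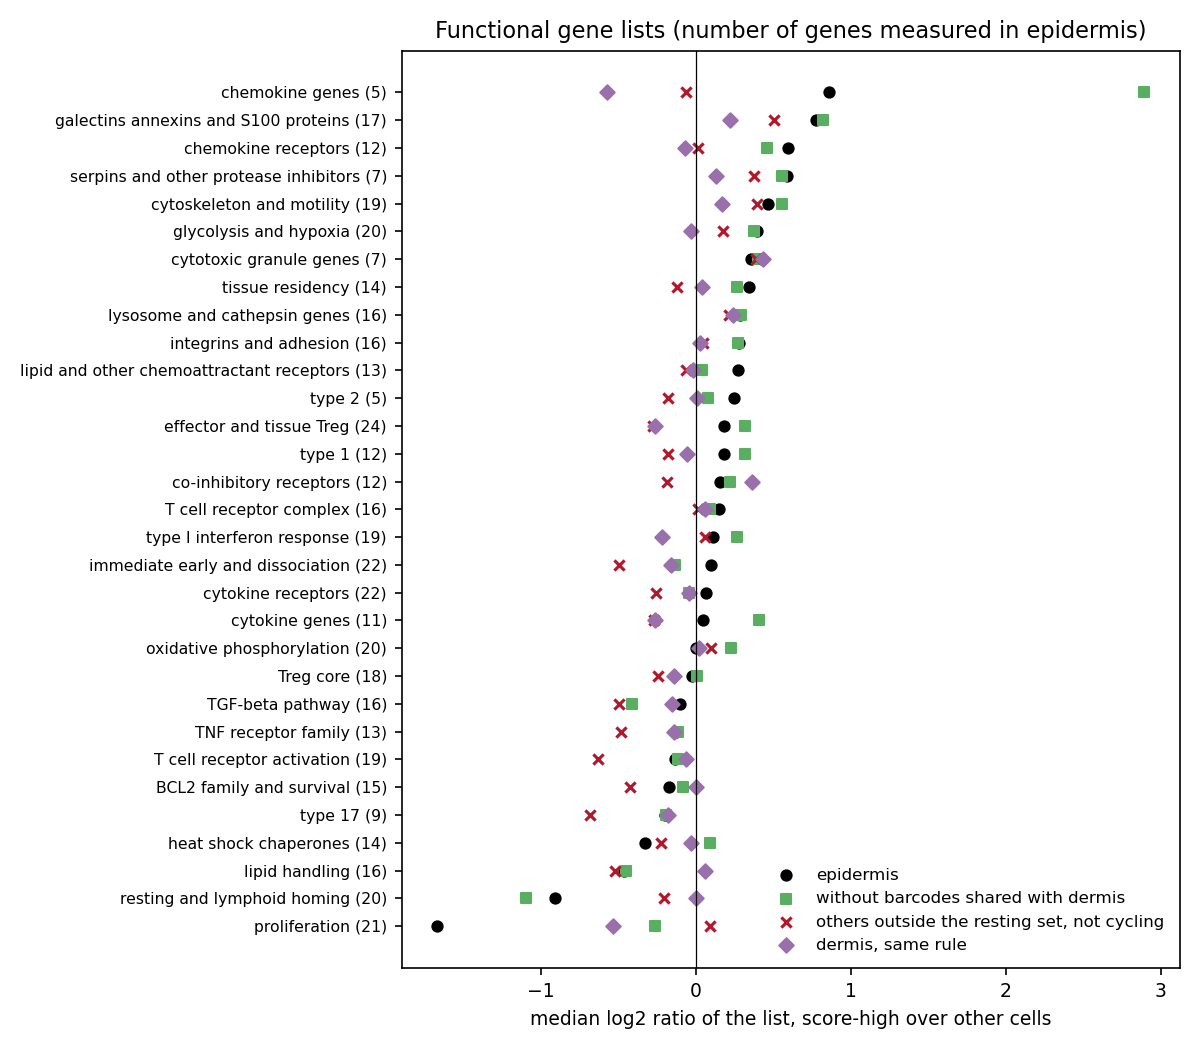
Each row is a functional gene list with at least 5 measured genes (number in brackets), and the x axis is the median log2 ratio of its genes, score-high over other cells. Black circles are all kept epidermal cells, squares the cells without barcodes shared with dermis, crosses the comparison with other cells outside the resting set and not cycling, and diamonds dermis; the proliferation list lies at -1.67 for all cells and at 0.09 in the comparison that leaves out resting and cycling cells.

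The overlap with other sets of epidermal cells was small for the resting set and near the base rate for the rest. Sets of 63 cells were also made from an effector score (Ccr8, Il1r2, Tnfrsf9, Tnfrsf4, Icos) and an AP-1 score (Fos, Fosb, Jun, Junb, Atf3). The score-high cells shared 14 cells (22.2%) with the effector set, 13 (20.6%) with the AP-1 set and 4 (6.35%) with the resting set, where 23.2% of all kept cells are score-high. Immediate-early genes were near equal as a list over all kept cells (median 0.10 over 22 genes). The list median was -0.49 against other cells outside the resting set and not cycling. It was -0.29 in the Xist-only and 0.53 in the Y-only cells. Over all kept cells, Jun was at 102 against 214 CPM and Nr4a3, induced by receptor signals, at 26.5 against 78.9.

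Grouping of the cells without the 5 score genes placed them unevenly. Of the 15 nearest neighbours of a score-high cell, 42.1% on average were score-high, against 21.9% for the other cells and 23.2% of all cells. Among 5 Leiden clusters, cluster 1 held 32 of the 63 score-high cells, which were 50.8% of its 63 cells (exact Clopper-Pearson interval 37.9 to 63.6%). Klrg1, Ccr2 and Camk2g were among its leading genes. Cluster 2, with 53 resting-set cells, held 2 score-high cells (3.17%), cluster 3, led by Birc5 and other cycle genes, 14 (24.6%), cluster 4, led by Atf3 and Cxcl10, 6 (12.5%), and cluster 5 held 9 (22.5%). Sex transcripts, taken up below, were also unevenly placed: cluster 1 had 15 cells with Xist only and 29 with Y-linked UMIs only, and cluster 4 had 42 and 3.

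The score-high cells were not alike among themselves. Of the 63, 19 held both Nkg7 and Lgals3, 15 held Nkg7 without Lgals3, 22 Lgals3 without Nkg7, and 7 neither. The 34 cells with Nkg7 had 4 UMIs of Il1rl1 (14.3 CPM) and the 29 without it had 28 (133 CPM), a ratio of 0.108 (0.0275 to 0.308). Gata3, the type 2 transcription factor, was at 150 CPM with Nkg7 and 313 without. In the other direction, Cxcr3 was at 261 against 71.1 CPM, 3.67-fold (2.09 to 6.89), in 26 of 34 and 8 of 29 cells, and Ccl5 at 472 against 47.4 CPM, in 13 and 6 cells. Of the 63 Ifng UMIs, 59 were in cells with Nkg7, though 1 cell alone held 39. All 7 Tbx21 UMIs were also in cells with Nkg7. A cell without Nkg7 had to be chosen through the other score genes, so this split depends on the choice of cells. The same holds for the splits by Ccr3 and Lgals3 below. How far the choice shapes these differences was not tested. Foxp3 was at 107 and 99.5 CPM and Ctla4 at 1204 and 1203 CPM, so these Treg genes did not separate the cells.

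**Figure D4:**
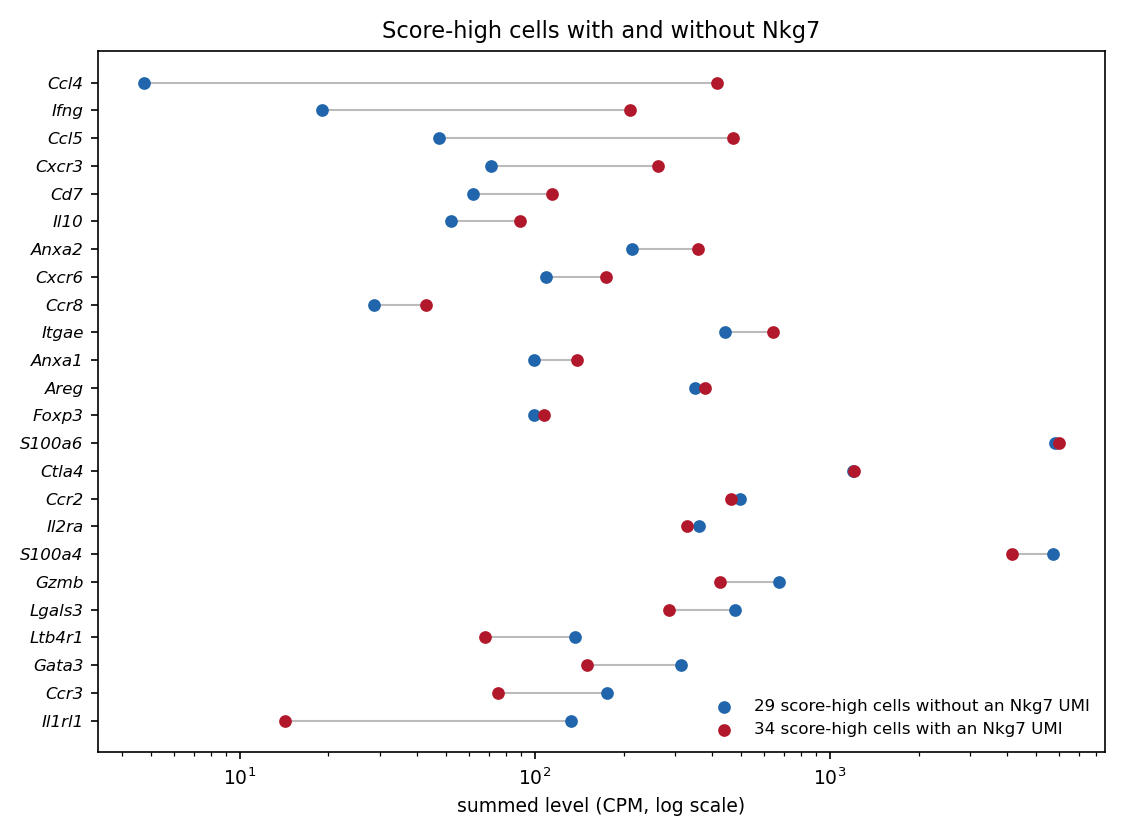
Each row is a gene, and the points are its summed level in CPM (log axis) over the 34 score-high cells with an Nkg7 UMI (red) and the 29 without (blue). Ccl4, Ifng, Ccl5 and Cxcr3 lie to the right with Nkg7 and Il1rl1, Ccr3 and Gata3 to the left, while Foxp3, Ctla4 and S100a6 lie together; Ccr3, Ltb4r1 and Lgals3 are score genes, which a cell without Nkg7 needed in order to be chosen.

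The 17 score-high cells with a Ccr3 UMI differed in other genes. Gzmb stood at 1145 CPM in them and at 233 CPM in the 46 without, 4.91-fold (3.74 to 6.49), with UMIs in 14 of 17 and 19 of 46 cells. Ccr2 was at 766 against 336 CPM and was seen in all 17. Ccl5 was at 349 against 260 CPM, within counting error (0.938 to 1.90), and Ifng at 37.3 against 173 CPM. Of the 57 Ifng UMIs in cells without Ccr3, 1 cell held 39. Likewise 1 cell held 30 of the 56 Ccl5 UMIs in cells with Ccr3. Il2ra stood at 224 against 400 CPM. By Lgals3, Gata3 was at 276 CPM in the 41 cells with it and 88.4 in the 22 without. S100a4 was at 5579 against 3032 CPM. Areg was at 477 against 109 CPM, but in 15 of 41 and 8 of 22 cells. Of its 164 UMIs in cells with Lgals3, single cells held 52, 34 and 32.

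Transcripts that mark sex were present in both forms. Of the score-high cells, 20 held Xist and no Y-linked UMI, 23 Y-linked and no Xist UMI, 1 both and 19 neither; of the other cells 87, 75, 2 and 44. The library thus held cells of both kinds, and the comparison was repeated within each with the same members. With Xist only, 188 of 3308 genes were higher (5.68%) and 263 lower (7.95%); with Y-linked only, 223 of 3270 (6.82%) and 189 (5.78%), larger shares from fewer cells. Of the 52 higher genes, 44 were measurable in each, and 44 and 42 lay above 1.

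Ccl5 was 8.43-fold higher in the Xist cells and 7.45-fold in the Y-linked cells, Cxcr6 4.32-fold and 3.37-fold, Anxa1 3.83-fold and 3.55-fold, and S100a6 2.53-fold and 1.80-fold. Bcl2 had 0 against 59 UMIs in the Xist cells, a ratio of 0.202 by the floor of 3 counts (exact upper limit 0.257). In the Y-linked cells Bcl2 stood at 0.131. Ccr7 was at 0.129 and 0.258. Other genes did not hold in both. Gzmb was at 3.27 and 0.915, Cxcr3 at 4.22 and 1.15, Anxa2 at 2.80 and 1.14, Mxi1 at 0.954 and 4.43, Camk2g at 0.994 and 2.90, and Ccr6 at 0.0704 and 1.08. Il1rl1 was at 0.276 (0.0870 to 0.675) and 1.33 (0.624 to 2.65). The intervals of Mxi1 were 0.320 to 2.38 and 2.18 to 9.15, and those of Camk2g 0.292 to 2.73 and 1.06 to 7.70. For Il1rl1, Mxi1 and Camk2g the intervals of the Xist and Y-linked cells thus overlapped. The difference between the kinds was not tested, since each is 1 set of cells.

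The same rule was then applied within dermis, a library that did not enter the choice. There it took 193 of 838 cells at a threshold of 668 CPM, with median depths of 4811 UMIs in the cells taken and 4815 in the rest. Only 8 of 2951 genes were at least 2-fold higher (0.271%) and 1 lower (0.0339%). Of the 52 higher epidermal genes, 32 were measurable in dermis, 24 lay above 1 and 2 reached 2-fold: Ccl5, at 2.94-fold, and Cxcr6, at 3.10-fold. Anxa1 was 1.95-fold, Gzmb 1.71-fold, S100a6 1.42-fold and S100a4 1.30-fold higher, while Cxcr3 stood at 0.924, Slc2a3 at 0.680, and Arnt2, Slc25a24 and Camk2g between 0.959 and 0.987. The resting list had a median of 0.00, with Ccr7 at 0.828. Bcl2 stood at 1.58 (0.700 to 3.36) on 11 and 24 UMIs, and Satb1 at 0.0959 on 1 and 36.

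In lymph node 88.7% of 9305 cells had no score UMI, so the rule took every one of the 1051 cells with any and set them against cells with none. These cells were deeper, with a median of 3856 against 2972 UMIs, and the median over all genes was 0.13. Genes at least 2-fold higher numbered 55 of 2621 (2.10%) and lower ones 4 (0.153%). Of the 52, 22 were measurable and 19 lay above 1, 10 of them at 2-fold or more. Anxa1 was 21.7-fold higher, Gzmb 9.49-fold, Ccr2 6.71-fold, Cxcr6 6.18-fold, S100a6 5.93-fold, S100a4 5.07-fold and Ccl5 4.38-fold. Anxa1, at 16.6 against 0.764 CPM, and Cxcr6, at 13.5 against 2.18, lay below the 50 CPM needed for a call. Cell cycle genes went the other way from epidermis, with Stmn1 4.14-fold and Top2a 4.46-fold higher, and Areg was 3.77-fold and Il1rl1 4.31-fold higher. Of these, Top2a (33.5 against 7.53 CPM), Areg (11.4 against 3.02) and Il1rl1 (20.2 against 4.69) were also below 50 CPM.

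**Figure D5:**
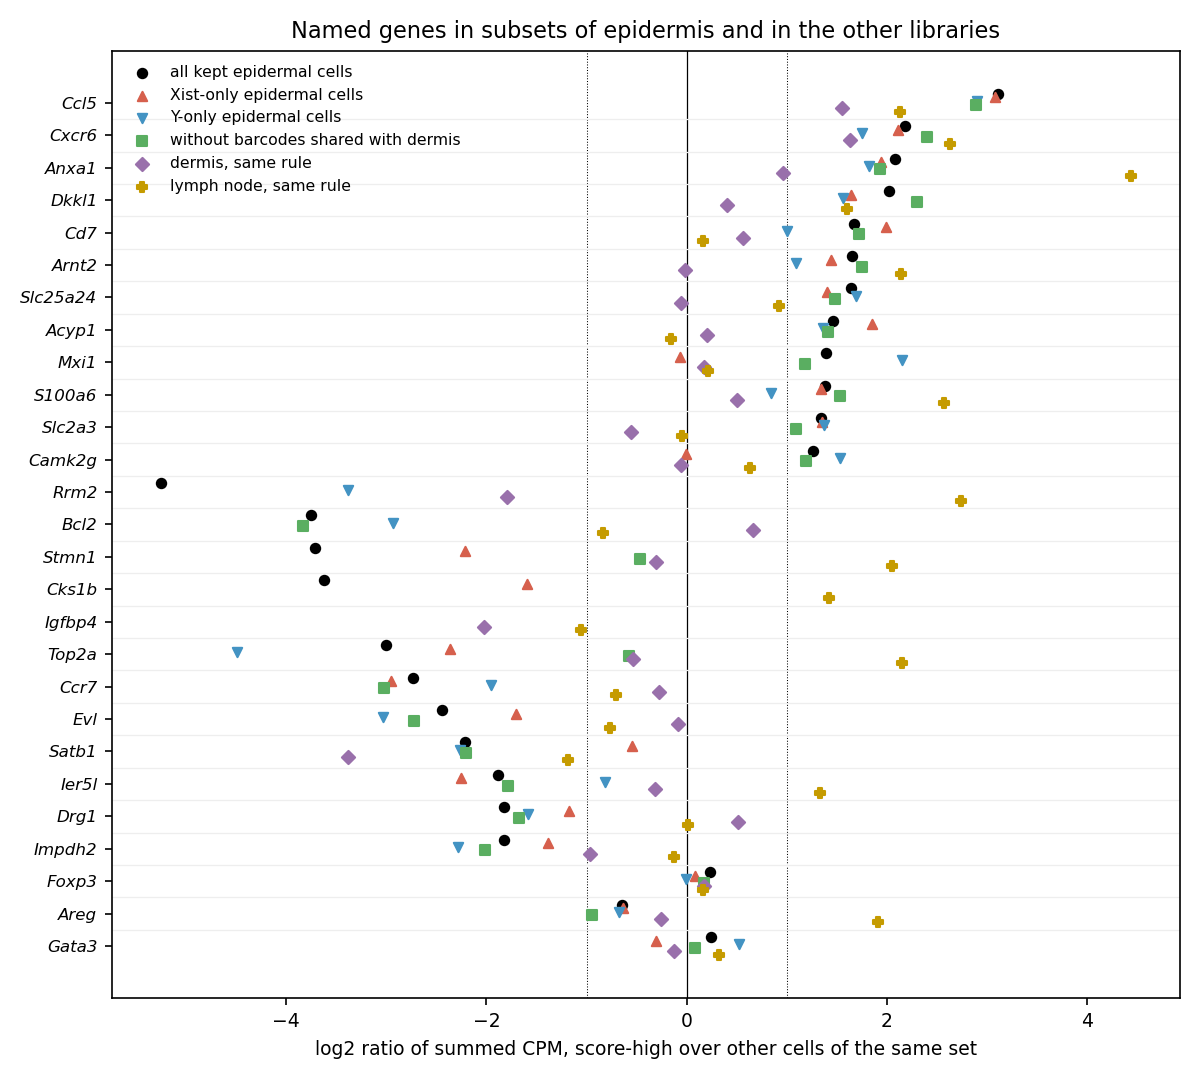
Each row is a named gene and the x axis is the log2 ratio of its summed CPM, score-high over other cells of the same set, with dotted lines at 2-fold; symbols stand for all kept epidermal cells, the Xist-only and Y-only cells, the cells without barcodes shared with dermis, and the same rule in dermis and lymph node. Points need at least 10 UMIs in all and 1 in each group; Ccl5 and Cxcr6 lie to the right in all 6 sets, while most lower genes lie nearer 0 in dermis, and Stmn1, Top2a and Rrm2 lie to the right in lymph node.

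The score genes themselves differed in level between the libraries. Summed over all kept cells of epidermis, dermis and lymph node, Nkg7 stood at 153, 82.7 and 53.6 CPM, the one score gene higher in epidermis than in dermis. Lgals3 was at 107, 158 and 19.7 CPM, Ltb4r1 at 36.1, 113 and 4.77, Ccr3 at 42.9, 71.0 and 5.51, and Serpinb1a at 15.5, 18.3 and 3.85. The exact intervals of epidermis and dermis overlapped only for Serpinb1a (10.8 to 21.7 and 14.6 to 22.7). At the epidermal threshold, 253 dermal cells (30.2%) and 339 lymph node cells (3.64%) would have been score-high, against 63 epidermal cells (23.2%). Median depth was 7052, 4813 and 3034 UMIs in the 3 libraries, collagenase was used on dermis alone and the kit differed for lymph node, and their part in these levels was not tested.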

How the data were processed

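Transcripts were counted in single Tregs of mouse epidermis, dermis and lymph node, with 1 library per tissue. The deposited values are counts, raw UMI counts per gene and barcode, made with Cell Ranger and the mm10 build, as the submitters' processing notes list (version 4.0.0 for skin per the file headers). Barcode calling was taken as deposited, and the raw reads were not used here. The sums compared rest on 490862 UMIs of score-high and 1698035 UMIs of other cells. The table held 27998 genes.

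Kept barcodes had 500 or more UMIs, at least 300 genes, 2 UMIs over Cd3d, Cd3e, Cd3g and Cd4, and at most 10% mitochondrial UMIs. UMIs of a gene were summed over cells and scaled to a total of 1000000 (CPM), and a gene was called at 2-fold or more with at least 50 CPM in the higher set. No test was run, because cells of 1 library are not replicates and the members were chosen on these counts. Intervals for ratios are exact at 95%, and intervals and limits cover counting error only. A ratio against 0 UMIs used a floor of 3 counts. List medians used genes with at least 10 CPM, score genes left out. There were 31 functional and 14 other-cell-type lists, of which 12 genes were not in the table. The named genes were the score genes, 12 Treg genes, the 12 highest and 12 lowest ratios with at least 5 cells and at most 25% of UMIs in 1 cell, up to 3 per list, and the 10 with the highest rank correlation with the score. Beyond this rule, Ifng, Ccl4, Tbx21, Prf1, Gzma, Eomes, Klrd1, Cd8a, Cd8b1, Mki67, Birc5, Cxcl10, Mcm7 and the myelin genes were added after their values were seen. Some genes of the lists are not reported here. The members, lists and rules were chosen with earlier results of these data known. The definition of cycling cells, the comparison outside the resting set and the removal of shared barcodes were chosen after seeing the data.

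Without the score genes, 15 neighbours per cell were found on 20 principal components of 1500 variable genes, and Leiden clusters were cut at resolution 1. Doublets were marked with Scrublet (19 cells, 4 score-high) and left in. Tools were Python 3.11.15, numpy 2.4.6, pandas 2.3.3, scipy 1.17.1, scanpy 1.11.5, leidenalg 0.10.2, igraph 0.11.9, matplotlib 3.10.9, R 4.3.3 and edgeR 4.0.16 for TMM factors. The closing section gives the effect of other score cuts, cell filters, depth, scaling and CPM minimums.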

Additional observations from a re-analysis of the deposited data

Results flagged for a closer look

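Serpinb1a UMIs were found in 33.3% of the 24 epidermal barcodes outside the T cell gate, a signal in barcodes that no comparison of cells used, and above the share in score-high cells. Stmn1 had a log2 ratio of 2.05 in lymph node and Ccr6 one of 1.19, both opposite in direction to epidermis, where they were lower in the score-high cells. The difference between the libraries was not tested.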

How the results depend on the processing

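The main counts were 56 higher and 73 lower genes. Higher counts moved beyond 1.5 times with the 87th percentile (98), a score without Nkg7 (87), thinning to 1500 UMIs (426), cells with a Foxp3 UMI (186), removal of cells with at least 5 proliferation-list UMIs (570), Xist-only cells (184), Y-only cells (223), the mean of each cell's CPM (91) and minimums of 20 CPM (235), 100 CPM (24) or none (1278). Lower counts moved with the 67th (44) and 87th percentiles (129), thinning (231), Foxp3 cells (207), removal of proliferation-list cells (316), Xist-only (234) and Y-only cells (189), totals without mitochondrial and ribosomal protein genes (172), and minimums of 20 CPM (331), 100 CPM (27) or none (1071). Several of these settings leave fewer UMIs in the sums. Within the Xist and Y-linked cells the percentile was taken anew here, so the counts differ from those above. The planned limit of 5 proliferation-list UMIs met 189 of 271 cells, because the list holds abundant genes.

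Directions that changed, as log2 ratios, were as follows. Thinning gave -0.47 for Mxi1, 0.53 for Cks1b, 0.11 for Nr4a3 and 0.26 for Stat4. Removal of proliferation-list cells gave -1.17 for Acyp1 and 0.53 for Ier5l. Xist-only cells gave -0.38 for Mxi1. Y-only cells gave -0.13 for Gzmb, 0.12 for Ccr6, -3.90 for Ccl4 and 0.32 for Cxcl10. A score without Nkg7 gave 0.18 for Stat4 and -5.48 for Ccl4, one without Lgals3 gave 0.15 for Nr4a3, and the 67th percentile gave 0.21 for Birc5. Mki67 reached 1.26 without shared barcodes, 1.53 without cycling cells and 0.87 against other cells outside the resting set, where Satb1, a gene of the resting score, reached 0.72. The cause of these changes was not tested. Ccl5, Cxcr6, Anxa1 and Cd7 were called higher and Ccr7 lower in all 23 settings that kept the CPM minimum. Score genes are left out here, since the choice of cells sets their direction. The settings held no comparison with the AP-1 set alone. Against it, shared cells left out, Cd7 was at a ratio of 1.34 (0.679 to 2.80), Ccl5 at 4.34, Anxa1 at 2.42 and Cxcr6 at 2.02. The median over all genes shifted by over 0.1 without proliferation-list cells (to 0.21) and without mitochondrial and ribosomal protein genes in the totals (to -0.10). No paired analysis was possible because each tissue had 1 library.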
